A study of Mus musculus with 10 samples.

Results

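The values described here are those of 9 B cell genes, Cd79a, Cd79b, Ms4a1, Pax5, Ebf1, Pou2af1, Ly6d, Fcer2a and Vpreb3, in RNA-seq of sorted mouse erythroid progenitors. They are 9 of the 24421 genes in the count table, matched by symbol, and all 9 were among the 11846 genes that passed the filter on low counts. They were selected because they differed by genotype in these same counts. Their differences between genotypes are therefore given as a description, without a test.

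Each of the 10 libraries came from 1 lethally irradiated BoyJ recipient mouse. Each mouse was transplanted with 1000000 bone marrow cells and given 1 mg tamoxifen a day for 5 days in 2 rounds. CD71+Ter119+ (R2) cells, about 100000 a mouse, were sorted from the marrow 8 weeks after the transplant. The question of the study was how loss of 1 copy of Ddx41, an RNA helicase gene, acts on these cells with or without loss of 1 copy of Trp53, the gene of p53. The genotypes were Ddx41+/+ Trp53+/+ (mice 10, 11 and 12), Ddx41+/- Trp53+/+ (mice 32 and 34), Ddx41+/+ Trp53+/- (mice 22, 23 and 24) and Ddx41+/- Trp53+/- (mice 46 and 47). All donors carried Rosa26-CreERT2, the Ddx41+/+ controls included. Rosa26 drives this tamoxifen-activated recombinase in every donor cell type, so 1 floxed copy of Ddx41 was open to deletion in donor B cells as well as in erythroid cells. The Trp53 deletion was a germline allele and was present before the transplant. The recipients kept their own stroma and any of their own blood cells that survived.

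Library totals ran from 7866648 (mouse 34) to 20283930 counts (mouse 11), and values are given as CPM (counts per 1000000 counts in the library) after TMM scaling. Ddx41 was at 21.9 to 26.6 CPM in the 6 Ddx41+/+ mice and at 12.5 to 16.5 CPM in the 4 Ddx41+/- mice. Trp53 was at 57.4 to 68.1 CPM in the 5 Trp53+/+ mice and at 40.3 to 46.2 CPM in the 5 Trp53+/- mice. Neither gene's values overlapped between its genotypes, so no library went against its label. Erythroid markers were high in every library: the red cell membrane transporter gene Slc4a1 alone was at 25470 to 30512 CPM. Of the 10 erythroid markers, only the globin genes were near 0, with Hbb-bt at 0 counts in all 10 libraries and Hba-a1 at 1.28 CPM at most. Both have near-identical copies in the genome, so their counts are uncertain.

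B cells arise in the marrow when Ebf1 and Pax5 switch on the B cell program in lymphoid progenitors. Developing B cells first assemble a heavy chain, test it in the pre-B cell receptor with a surrogate light chain, and then carry a B cell receptor (BCR) in which CD79A and CD79B pass on the signal. Erythroid progenitors come from a separate branch of blood formation. In bulk RNA, more cells of a type and more RNA per cell cannot be told apart.

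The genes lie on 8 chromosomes (GENCODE annotation of GRCm38). Cd79a was at chr7:24897381-24902197 and Cd79b at chr11:106311341-106314762. Ebf1 was at chr11:44617317-45008091, which places it 24.96 Mb from Trp53, while Cd79b lay 36.73 Mb from Trp53 on the same chromosome. Pax5 was at chr4:44524757-44710487, Pou2af1 at chr9:51213708-51240080 and Vpreb3 at chr10:75943057-75949657. Ms4a1 was at chr19:11249675-11266241, Ly6d at chr15:74762056-74763620 and Fcer2a at chr8:3681737-3694175. Genes annotated on the opposite strand overlap Ms4a1, Pax5, Ebf1 and Vpreb3, and same-strand genes lie within Pou2af1 and Pax5. The strand setting of the count was not given in the sources used here, so reads of these overlapping genes cannot be told apart. The longest annotated transcript of each gene was compared with transcripts of other genes, in the sense direction only. Of its 75-base stretches, 4.48% for Cd79a also occurred in another gene (Gm32220). For Fcer2a 0.369% occurred in other genes, while the other 7 genes shared none.

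Promoters, the stretch from 250 bases before to 50 bases after a start site, were found in RefSeq (GRCm38.p6) for 6 of the 9 genes, 9 promoters in all, and not for Cd79b, Ms4a1 and Ly6d. They were searched on both strands for the core of the EBF1 motif (CCCNNGGG), the octamer (ATTTGCAT) that Pou2af1's partner proteins bind, and the E-box (CAGGTG) bound by E2A proteins. These are shown because Ebf1 and Pou2af1 are themselves among the 9 genes. The stretches that held a match, with the motif in capitals, were as follows.
Vpreb3, chr10:75948244-75948273, + strand: tcagtgggctgATTTGCATgctctattgtg
Cd79a, chr7:24897331-24897360, + strand: ttgtggccagccCAGGTGcagggcagttcc
Fcer2a, chr8:3691082-3691111, - strand: gattccCAGGTGccaatgctggcactcatt
Fcer2a, chr8:3690943-3690972, - strand: gtggcacacagcCAGGTGaaacagggaaat

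The octamer of Vpreb3 lay 45 bases before the start site, and the E-box of Cd79a 154 bases before it. The pair of E-boxes of Fcer2a lay 244 and 99 bases before a start site. In the GENCODE annotation the Cd79a stretch is outside the gene, upstream of it, while those of Vpreb3 and Fcer2a are in introns, because a transcript begins farther upstream. Over all 32851 promoters of the same length, 1.74% held the octamer, 20.2% the E-box and 13.7% the EBF1 core. Of the 9 promoters here, 1 held the octamer, 2 the E-box and 0 the EBF1 core. A match is a run of letters, not a measured binding site.

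Cd79a and Cd79b, which encode the signalling chains of the BCR, had the highest mean counts of the 9 genes in every genotype. Cd79a was at 18.5, 10.98 and 22.9 CPM in Ddx41+/+ Trp53+/+ mice 10, 11 and 12, and at 30.6 and 48.4 CPM in Ddx41+/- Trp53+/+ mice 32 and 34. It was at 40.7, 35.8 and 47.1 CPM in Ddx41+/+ Trp53+/- mice 22, 23 and 24, and at 44.9 and 37.6 CPM in Ddx41+/- Trp53+/- mice 46 and 47. All 7 mice that lacked a copy of Ddx41, Trp53 or both were above the 3 that lacked neither, and these 7 overlapped among their genotypes. For Cd79b the values were 27.0, 9.67 and 21.2 CPM in mice 10, 11 and 12, and 20.4 and 40.0 CPM in mice 32 and 34. They were 37.5, 32.5 and 45.5 CPM in mice 22, 23 and 24, and 39.9 and 33.5 CPM in mice 46 and 47. Unlike Cd79a, Cd79b in mouse 32 was below 2 of the 3 Ddx41+/+ Trp53+/+ mice. The ratio of Cd79b to Cd79a counts was 1.46 in mouse 10 and 0.666 to 0.967 in the other 9 mice.

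Ebf1 and Pax5 encode the transcription factors that start and hold B cell identity. Ebf1 was at 3.48, 2.33 and 4.57 CPM in mice 10, 11 and 12, at 6.57 and 15.2 CPM in mice 32 and 34, at 11.2, 11.9 and 14.8 CPM in mice 22, 23 and 24, and at 16.2 and 13.2 CPM in mice 46 and 47. It had the largest span of the 9 genes, with the highest mouse 6.92 times the lowest. Pax5 was at 4.90, 1.51 and 3.94 CPM in mice 10, 11 and 12, at 5.17 and 9.02 CPM in mice 32 and 34, at 6.80, 8.96 and 9.72 CPM in mice 22, 23 and 24, and at 10.1 and 6.34 CPM in mice 46 and 47. The gap between Pax5 in mouse 10 and mouse 32 was small, and mouse 11 had only 31 Pax5 counts. Pou2af1 encodes a coactivator that works with octamer-binding proteins in B cells. Its values were 11.9, 5.78 and 11.3 CPM in mice 10, 11 and 12, 21.0 and 26.0 CPM in mice 32 and 34, 29.2, 27.4 and 39.1 CPM in mice 22, 23 and 24, and 30.4 and 30.7 CPM in mice 46 and 47. Pou2af1 was the only 1 of the 9 genes in which both Ddx41+/- Trp53+/- mice were above both Ddx41+/- Trp53+/+ mice.

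The surface proteins mark different stages: LY6D appears on lymphoid progenitors that lean to the B lineage, and CD20 (Ms4a1) and CD23 (Fcer2a) on later ones. Ly6d was at 10.5, 4.81 and 7.96 CPM in mice 10, 11 and 12, at 17.1 and 23.6 CPM in mice 32 and 34, at 18.1, 19.7 and 24.2 CPM in mice 22, 23 and 24, and at 21.4 and 18.1 CPM in mice 46 and 47. Ms4a1 was at 6.22, 3.60 and 8.09 CPM in mice 10, 11 and 12, at 10.2 and 14.4 CPM in mice 32 and 34, at 11.3, 11.2 and 19.1 CPM in mice 22, 23 and 24, and at 10.6 and 12.4 CPM in mice 46 and 47. In both genes the Ddx41+/+ Trp53+/+ mice were below the other 7, which overlapped. Fcer2a was at 3.06, 3.11 and 2.77 CPM in mice 10, 11 and 12, at 6.93 and 7.62 CPM in mice 32 and 34, at 6.10, 5.07 and 8.67 CPM in mice 22, 23 and 24, and at 8.71 and 6.45 CPM in mice 46 and 47. Fcer2a differed from the other 8 genes in that mouse 11 was not its lowest mouse.

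Vpreb3 encodes a relative of the surrogate light chain protein VPREB1 that is made during B cell development. Its values were 5.22, 2.67 and 4.29 CPM in mice 10, 11 and 12, 6.995 and 10.5 CPM in mice 32 and 34, 14.999, 11.1 and 14.96 CPM in mice 22, 23 and 24, and 7.32 and 10.1 CPM in mice 46 and 47. The 3 Ddx41+/+ Trp53+/- mice were the highest of the 10, above both Ddx41+/- genotypes. No other gene of the 9 had this order.

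**Figure D1:**
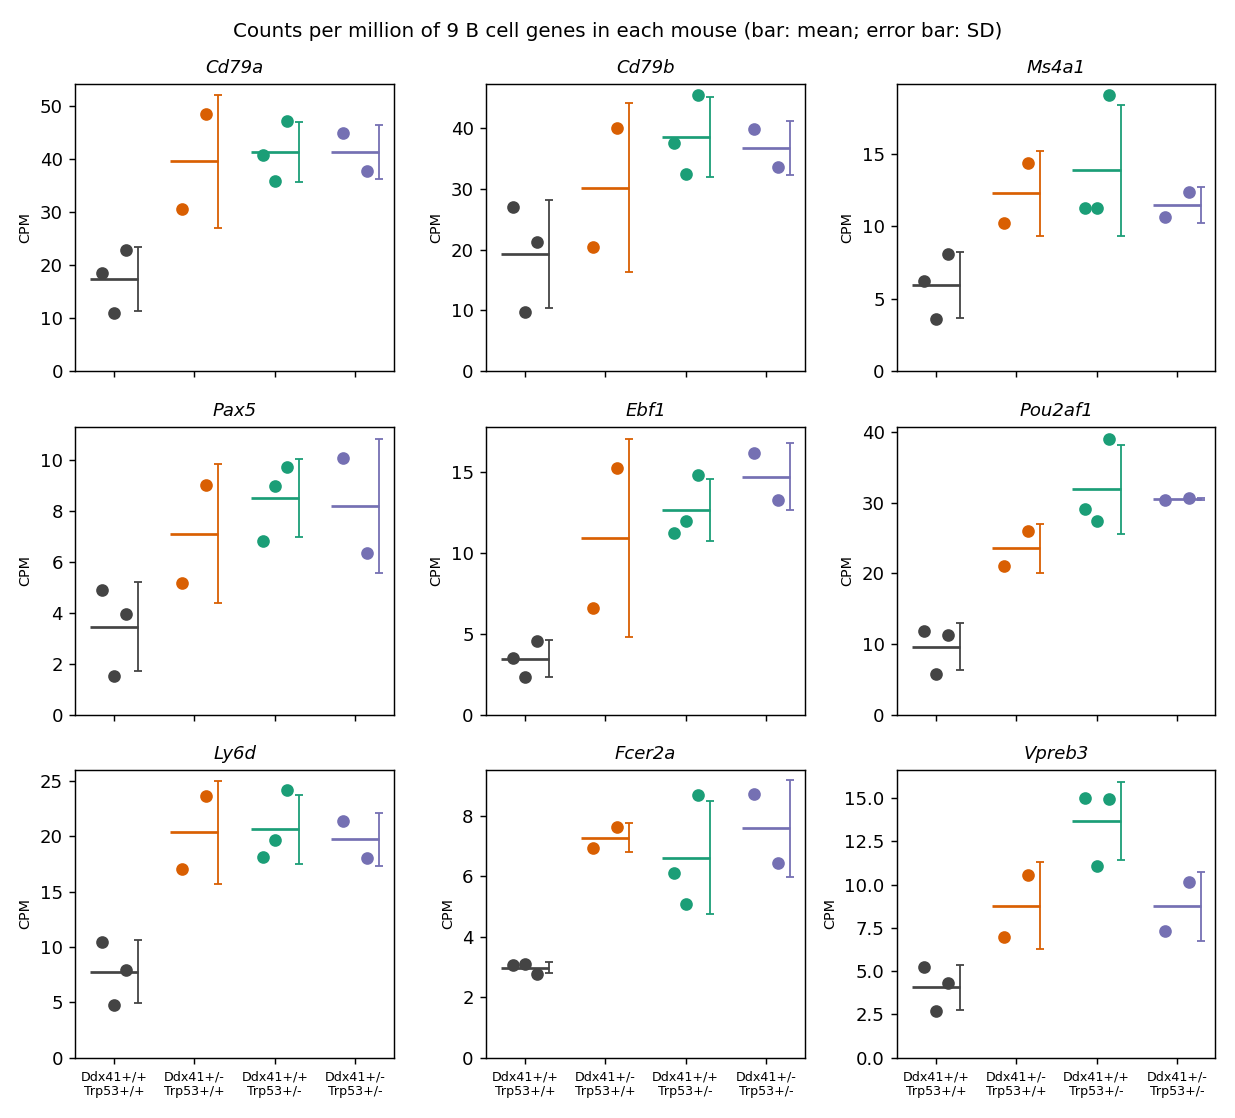
CPM (vertical axes, from 0) of the 9 B cell genes in each of the 10 mice, by genotype (horizontal axes); points are mice, horizontal bars are means and error bars are SD (n = 2 or 3). The 3 Ddx41+/+ Trp53+/+ mice are the lowest group in every panel, with Cd79b the gene in which they overlap Ddx41+/- Trp53+/+, and Vpreb3 is highest in Ddx41+/+ Trp53+/-.

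Because the comparisons share genotypes, they are not independent: the Ddx41+/+ Trp53+/+ mice are the control of 2 of the 4. With Trp53+/+, the log2 difference of Ddx41+/- against Ddx41+/+ was between 0.62 (Cd79b, SE 0.318) and 1.62 (Ebf1, SE 0.319), with a median of 1.17 over the 9 genes and of 0.0010 over all tested genes. In 8 of the 9 genes every Ddx41+/- mouse was above every Ddx41+/+ mouse, which held for 12.9% of all tested genes. By the quasi-likelihood test of edgeR at an adjusted p under 0.05 and a fold over 1.5, 0.38% of all tested genes were called higher in this comparison and 0.16% lower. These shares are given for scale, since the 9 genes were picked on the contrast.

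With Trp53+/-, the same Ddx41 comparison gave log2 differences from -0.64 (Vpreb3, SE 0.266) to 0.21 (Ebf1, SE 0.286) and a median of -0.066. The genotypes overlapped in 8 of the 9 genes, and in the other, Vpreb3, both Ddx41+/- mice were below all 3 Ddx41+/+ mice, as in 10.8% of all tested genes. Over all tested genes 0.0422% were called in either direction.

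For Trp53+/- against Trp53+/+ with Ddx41+/+, the log2 differences ran from 1.00 (Cd79b, SE 0.28) to 1.89 (Ebf1, SE 0.284), with a median of 1.32. Vpreb3 (1.75, SE 0.249) and Pou2af1 (1.74, SE 0.213) followed Ebf1, and in each of the 9 genes every Trp53+/- mouse was above every Trp53+/+ mouse, which held for 7.58% of all tested genes. Over all tested genes, 0.844% were called higher and 0.0675% lower. With Ddx41+/-, the Trp53 comparison gave differences from -0.073 (Ms4a1, SE 0.322) to 0.48 (Ebf1, SE 0.325) and a median of 0.083. Only Pou2af1 did not overlap there, with both Trp53+/- mice higher, as in 18.8% of all tested genes, and 0.169% of all tested genes were called in either direction.

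The difference between the Ddx41 effects with Trp53+/- and with Trp53+/+ was below 0 for all 9 genes, from -0.69 (Cd79b, SE 0.442) to -1.73 (Vpreb3, SE 0.39), with a median of -1.32. Of all tested genes, 48.5% were above 0 and 0.0675% were called for this difference.

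**Figure D2:**
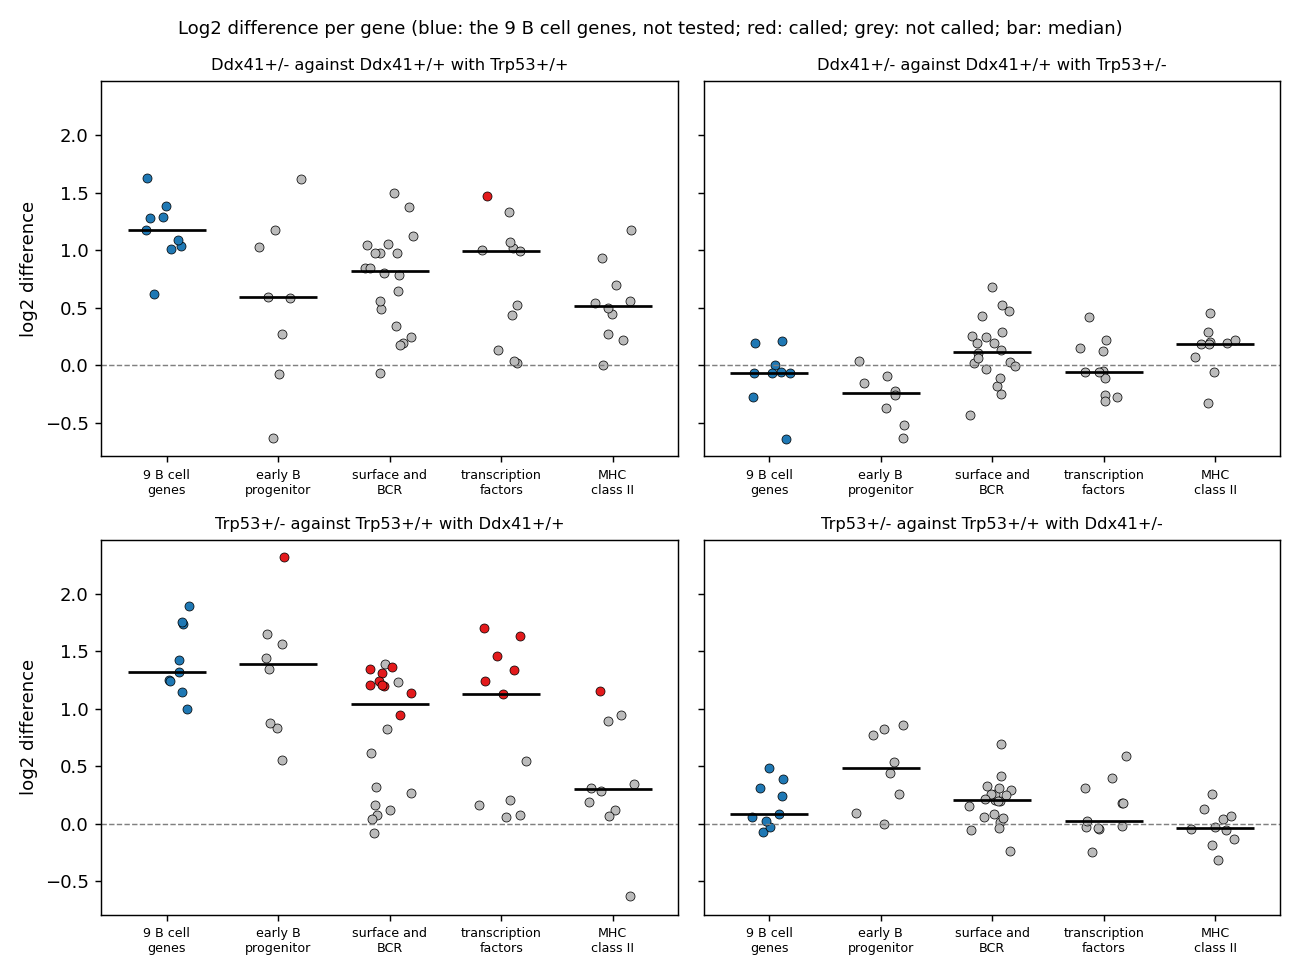
Log2 difference between genotypes (vertical axes) for the 9 B cell genes and 4 lists of related genes, with 1 panel for each of 4 comparisons; points are genes, bars are medians, and red points passed the edgeR test (the 9 B cell genes, in blue, were not tested). The medians of the 9 genes were 1.17 and 1.32 in the left panels and -0.066 and 0.083 in the right panels.

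The 9 genes often ranked the mice of a genotype alike, in the same counts on which they were chosen, though less so in Ddx41+/- Trp53+/-. In Ddx41+/+ Trp53+/+, mouse 11 was the lowest in 8 of the 9 genes. Among Ddx41+/- Trp53+/+ mice, mouse 34 was above mouse 32 in 9 of 9. In Ddx41+/+ Trp53+/-, mouse 24 was the highest in 8 of 9, and in Ddx41+/- Trp53+/- mouse 46 was above mouse 47 in 6 of 9. Genes of the same mouse come from 1 library, so these counts describe 10 libraries and not 9 separate observations. How often all tested genes gave these orders was not counted. Averaged over the 9 genes, the log2 CPM relative to each gene's mean over the 10 mice was -0.62, -1.53 and -0.68 in mice 10, 11 and 12, and -0.059 and 0.56 in mice 32 and 34. It was 0.39, 0.32 and 0.77 in mice 22, 23 and 24, and 0.50 and 0.34 in mice 46 and 47. Mouse 32 lay between the 3 Ddx41+/+ Trp53+/+ mice and the other 6, and mouse 11 stood lowest of all.

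The make-up of the summed counts of the 9 genes varied less than their level. The 9 genes were picked for differing between these genotypes, so this follows in part from that choice. No other set of genes was compared in this way. Cd79a made up 20.3% to 26.3% of the sum, Pou2af1 13.0% to 18.2% and Ly6d 9.14% to 13.7%. Ms4a1 made up 5.61% to 9.30% and Pax5 3.39% to 5.47%. Cd79b varied more, from 16.3% (mouse 32) to 29.8% (mouse 10), as did Ebf1 (3.84% to 8.52%), Vpreb3 (3.86% to 8.53%) and Fcer2a (3.10% to 6.99%). The summed level itself ran from 44.5 to 223 CPM, and the highest mouse of a gene was 3.15 (Fcer2a) to 6.92 (Ebf1) times its lowest. The Ebf1 to Cd79a count ratio was 0.189 to 0.212 in the Ddx41+/+ Trp53+/+ mice and 0.215 to 0.360 in the other 7. Its values in mouse 11 (0.212) and mouse 32 (0.215) were almost equal.

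**Figure D3:**
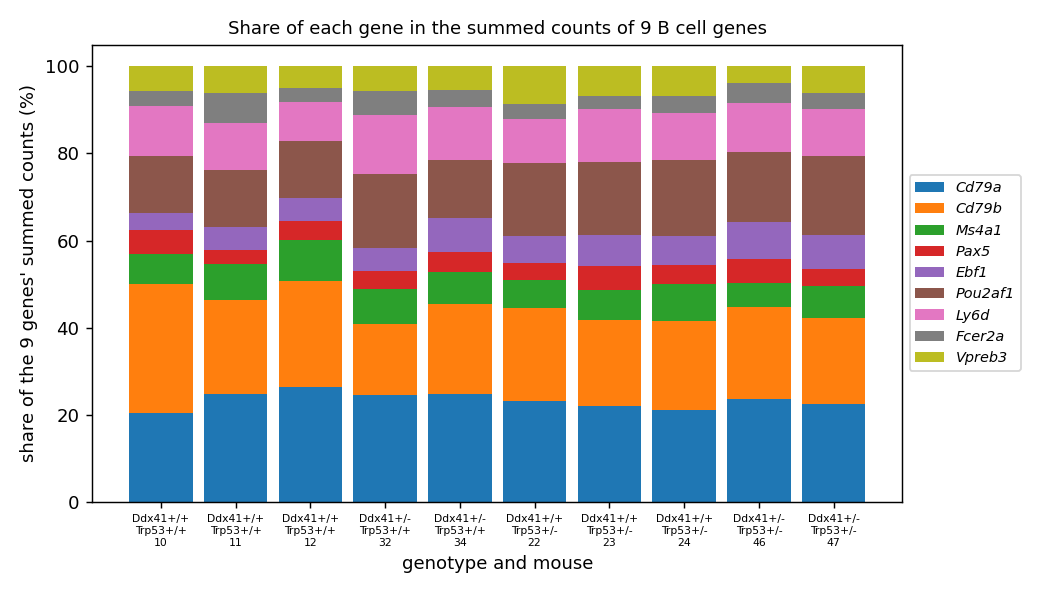
Share in percent (vertical axis) of each of the 9 B cell genes in their summed counts, for each mouse and genotype (horizontal axis); each colour is 1 gene. In all mice but mouse 32, Cd79a and Cd79b were the 2 largest parts, and the Cd79b part was widest in mouse 10, at 29.8%.

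Per kilobase of annotated exon, Cd79a, Cd79b and Ly6d were the highest of the 9 genes in level. In Ddx41+/+ Trp53+/+ mice they were at 11.97 ± 4.13, 13.5 ± 6.17 and 10.4 ± 3.83 CPM per kb (SD, n = 3), which overlap. Vpreb3 (4.73 ± 1.501) and Pou2af1 (3.78 ± 1.32) came next and overlapped each other. Ms4a1 (0.965 ± 0.365), Fcer2a (0.963 ± 0.0598), Pax5 (0.390 ± 0.198) and Ebf1 (0.355 ± 0.114) were the lowest. In Ddx41+/+ Trp53+/- mice the upper levels were 28.3 ± 3.87 for Cd79a, 27.7 ± 4.23 for Ly6d and 26.9 ± 4.59 for Cd79b. Vpreb3 was at 15.9 ± 2.63 and Pou2af1 at 12.5 ± 2.47 CPM per kb, so the same grouping held with higher levels.

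Other genes of the B lineage were taken from 3 lists, of early progenitor genes, surface and BCR signalling genes, and transcription factor genes. Together with a list of 11 immunoglobulin constant region genes, 52 genes were listed. Of these, 41 were in the count table and 39 passed the filter. Under the symbols listed, 0 of the 11 immunoglobulin genes were in the count table. These lists were drawn up with earlier results of these data known, so they are not independent of the 9 genes. With Trp53+/+, 1 of 39 was called higher in Ddx41+/- mice, 0 were called lower, and 25 had an unadjusted p under 0.05. The share of all tested genes at this unadjusted threshold was not counted, for this or later comparisons. The called gene was Irf4, a transcription factor gene of B cells and plasma cells (log2 difference 1.47, SE 0.269, edgeR adjusted p = 0.0153). Irf4 was at 12.1, 4.86 and 10.8 CPM in mice 10, 11 and 12 and at 20.7 and 30.7 CPM in mice 32 and 34, without overlap. The median log2 difference was 0.80 over the 39, and 36 of 39 were above 0, against 50.3% of all tested genes. This count rested on few mice: it was 0 without mouse 34, 3 without mouse 10 and 4 without mouse 12, and DESeq2 called 6.

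For Trp53+/- against Trp53+/+ with Ddx41+/+, 16 of 39 were called higher and 0 lower, and the median was 1.14. Of the 20 genes on the surface and BCR signalling list, 9 were called. Among them were Ralgps2 (1.37, SE 0.234, adjusted p = 0.00794), Cd72, the adaptor gene Blnk, the kinase gene Blk, Fcrla, Fcmr and Siglecg. Tnfrsf13c, which encodes the BAFF receptor, was also among the 9. The log2 differences of the 9 ran from 0.95 (Blnk) to 1.37 (Ralgps2). Of 11 transcription factor genes, 6 were called: Bach2 (1.71, SE 0.311, adjusted p = 0.0126), Irf4 (1.63, SE 0.243, adjusted p = 0.00313), Spib (1.46, SE 0.241, adjusted p = 0.00669), Id3, Foxo1 and Ikzf3. Spib was at 20.0, 8.26 and 14.9 CPM in mice 10, 11 and 12 and at 39.5, 33.5 and 45.1 CPM in mice 22, 23 and 24, without overlap. Of 8 early progenitor genes, Lef1 was called (2.32, SE 0.445, adjusted p = 0.0154), on 5 to 17 counts in the Ddx41+/+ Trp53+/+ mice. The recombinase gene Rag1 (1.44, adjusted p = 0.106), the surrogate light chain genes Igll1 (1.65, adjusted p = 0.149) and Vpreb1 (1.56, adjusted p = 0.0671) and the cytokine receptor gene Il7r (1.35, adjusted p = 0.0913) did not pass the test by edgeR, while DESeq2 called Igll1, Vpreb1 and Il7r. Without mouse 24 the count of 16 became 4, and without mouse 11 it became 10; Over 15 alternative fits, Ralgps2, Spib and Irf4 were each called in 15, Blk, Siglecg, Bach2 and Foxo1 in 14, Fcrla in 13 and Lef1 in 12. The calls of Id3 (9 of 15), Fcmr (8), Cd72 and Tnfrsf13c (7 each), Blnk (6) and Ikzf3 (5) were lost more often.

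With Trp53+/-, the Ddx41 comparison called 0 of 39 by edgeR and by DESeq2, with 0 at an unadjusted p under 0.05 and a median of -0.011. The Trp53 comparison with Ddx41+/- likewise called 0 of 39 by both tools, with 0 at an unadjusted p under 0.05 and a median of 0.20. The difference between the Ddx41 effects was called for 0 of 39 by both tools, with 19 at an unadjusted p under 0.05 in edgeR. Its median was -0.78 and 35 of 39 were below 0, while 48.5% of all tested genes were above 0. When no filter on low counts was used, 9 were called.

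**Figure D4:**
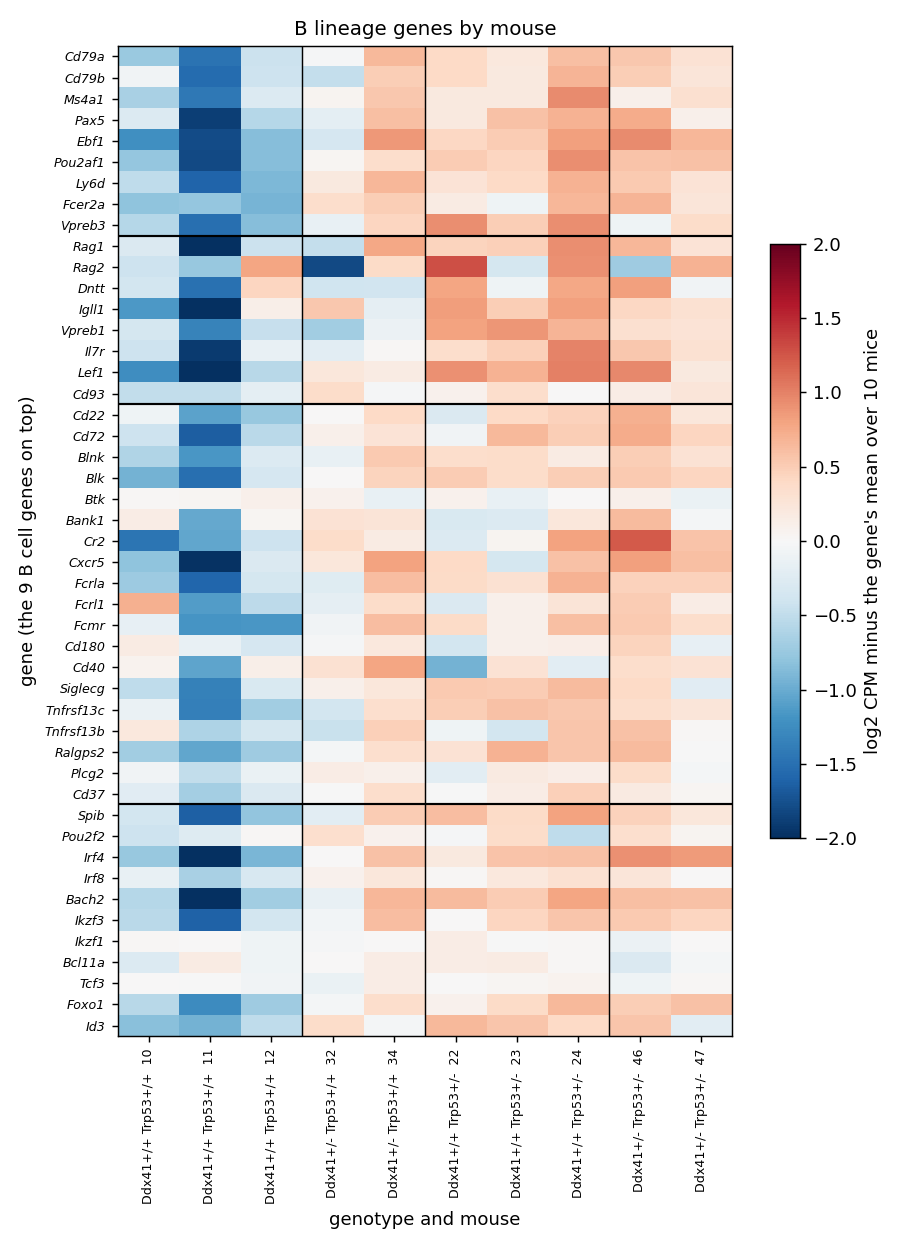
Log2 CPM relative to each gene's mean over the 10 mice (colour, which stops at -2 and 2) for the 9 B cell genes, at the top, and 38 of the 39 other B lineage genes, in blocks of early progenitor, surface and BCR signalling, and transcription factor genes; columns are mice by genotype. Mouse 11 is the lowest Ddx41+/+ Trp53+/+ mouse in 8 of the 9 genes at the top and in 31 of the 39 others. The share over all tested genes was not counted.

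The order of mice within a genotype was similar in the other B lineage genes. Mouse 11 was the lowest of its genotype in 31 of 39, mouse 34 was above mouse 32 in 30 of 39, mouse 24 was the highest in 22 of 39 and mouse 46 was above mouse 47 in 32 of 39. Among the transcription factor genes, Ikzf1 and Tcf3 varied little between mice, with Ikzf1 at 304 to 364 CPM and Tcf3 at 336 to 406 CPM. Others on that list varied more, such as Foxo1 at 4.03 to 15.5 CPM and Id3 at 1.70 to 5.40 CPM.

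Among 11837 other genes tested, the 5 whose pattern over the 10 mice lay nearest to the mean pattern of the 9 included Fcrla, Spib, Ablim1 and Atp1b1. The measure was the root mean square difference of log2 CPM, each gene centred on its own mean. It was 0.13 for Fcrla, 0.14 for Spib, 0.16 for Ablim1 and 0.17 for Atp1b1, against a median of 0.72 over all genes compared. For the 9 genes themselves, which make up that mean, it was 0.11 for Cd79a and 0.13 for Ly6d, and up to 0.31 for Ebf1 and 0.33 for Fcer2a.

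Genes of MHC class II presentation, which B cells share with macrophages and dendritic cells, had medians of 0.52 for the Ddx41 comparison with Trp53+/+ and 0.30 for the Trp53 comparison with Ddx41+/+. Of 10 genes, 0 were called in the first, with 5 at an unadjusted p under 0.05, and 1 in the second, H2-DMb2 (1.15, edgeR adjusted p = 0.0475).

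Markers of other cells that a sort could carry were compared in the same fits, and 0 of the T cell, NK cell, plasma cell, plasmacytoid dendritic cell, macrophage, neutrophil, megakaryocyte and erythroid markers were called in any comparison. T cell markers had a median log2 difference of 0.54 in the Ddx41 comparison with Trp53+/+ and of 0.94 in the Trp53 comparison with Ddx41+/+, with 1 and 2 of 13 at an unadjusted p under 0.05. Their summed level was 22.5 to 31.6 CPM in Ddx41+/+ Trp53+/+ mice, 31.2 and 37.1 CPM in mice 32 and 34, 29.4 to 42.0 CPM in Ddx41+/+ Trp53+/- mice and 32.3 and 34.1 CPM in Ddx41+/- Trp53+/- mice. Of these the most abundant was Lck, at 12.5 to 14.7 CPM, while the CD3 genes were at 2.16 CPM or less and 12 of the 13 markers had counts in all 10 mice. NK cell markers, with medians of 0.92 and 0.72 in the same comparisons and 3 of 8 at an unadjusted p under 0.05 in each, summed to 4.52 to 7.54 CPM in Ddx41+/+ Trp53+/+ mice and to 7.85 to 14.3 CPM in the other 7. For Ddx41 with Trp53+/+, 9 of 13 T cell and 6 of 8 NK cell markers were above 0, against 50.3% of all tested genes. For Trp53 with Ddx41+/+ all 13 and all 8 were, against 50.1% of all tested genes, although none was called.

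Plasmacytoid dendritic cell markers summed to 15.1 to 24.5 CPM in Ddx41+/+ Trp53+/+ mice and 21.8 to 37.8 CPM in the others, with medians of 0.43 and 0.86. All 6 were above 0 for Ddx41 with Trp53+/+ and for Trp53 with Ddx41+/+, against 50.3% and 50.1% of all tested genes. At an unadjusted p under 0.05 were 0 and 2 of the 6. Macrophage markers had medians of -0.16 and -0.57 in the same comparisons. They summed to 299 to 550 CPM in Ddx41+/+ Trp53+/+ mice and to 239 to 328 CPM in Ddx41+/+ Trp53+/- mice. In Ddx41+/- Trp53+/+ mice 32 and 34 the sums, 367 and 453 CPM, lay within the Ddx41+/+ Trp53+/+ range. For Ddx41 with Trp53+/+, 1 of 12 had an unadjusted p under 0.05. For Trp53 with Ddx41+/+, 8 of 12 macrophage markers had an unadjusted p under 0.05 and all 12 were below 0. For Ddx41 with Trp53+/-, 11 of 12 were above 0, with a median of 0.46 and 6 at an unadjusted p under 0.05. Of all tested genes, 50.1% were above 0 in the former comparison and 48.8% in the latter. Plasma cell markers, led by Jchain at 56.7 to 158 CPM, summed to 91.2 to 198 CPM and overlapped among the genotypes. Neutrophil markers were the most abundant of the non-erythroid lists, at 4967 to 8514 CPM, and megakaryocyte markers summed to 36.4 to 50.1 CPM. For Ddx41 with Trp53+/+, medians were 0.27 for plasma cell, 0.19 for neutrophil and 0.24 for megakaryocyte markers. For Trp53 with Ddx41+/+, they were 0.13, 0.096 and -0.13. The part of any of these cells in the B cell gene values was not tested.

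**Figure D5:**
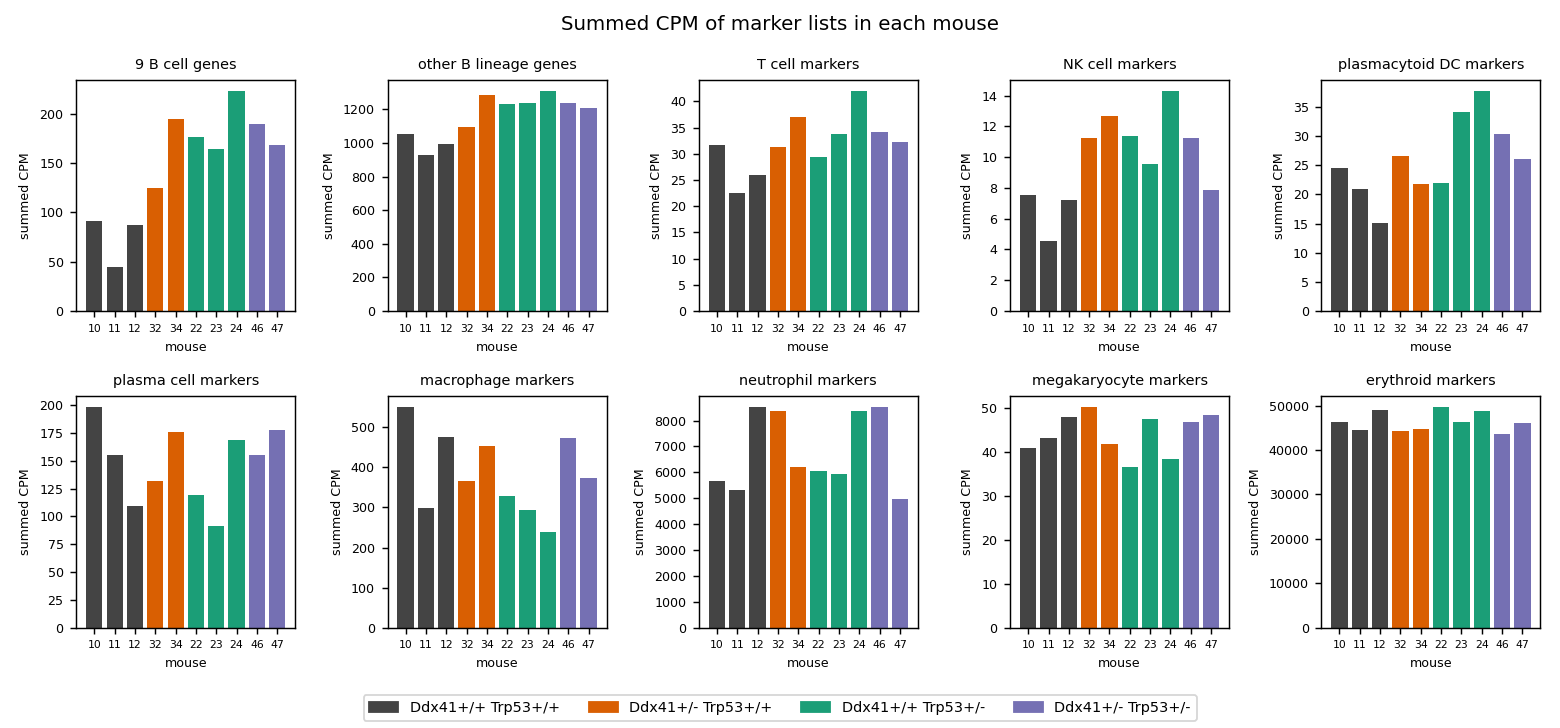
Summed CPM (vertical axes, from 0, each with its own scale) of the 9 B cell genes, the other B lineage genes and 8 marker lists of other cell types in each mouse (horizontal axes), coloured by genotype. The sum of the 9 genes was 44.5 to 90.7 CPM in Ddx41+/+ Trp53+/+ mice and 125 to 223 CPM in the other 7, while erythroid markers were between 43504 and 49623 CPM in all 10.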

How the data were processed

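The deposited table holds unnormalized read counts by gene symbol for 10 libraries, 1 per mouse. Per the labels, RNA was made into TruSeq Stranded mRNA libraries, whereas the methods name TruSeq RNA v2. The submitters' processing notes name FastQC 0.11.7, HISAT2 2.0.5, featureCounts 1.5.2 and mm10. The file name states that mice 35 and 45 were removed; they were not analysed here. Groups came from the labelled genotypes, with 2 or 3 mice each, so the number of mice limits the precision.

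Counts were filtered by filterByExpr (12575 of 24421 genes removed), scaled by TMM and fitted with 1 mean per genotype over all 10 mice in edgeR 4.0.16 (R 4.3.3). Genes were called by the two-sided quasi-likelihood F-test at a Benjamini-Hochberg adjusted p under 0.05, over all tested genes, and a fold over 1.5. SE is the log2 difference over the square root of F. Log2 CPM used a prior count of 2. Alternatives were DESeq2 1.42.0 (size factors and Wald test), other filters, fits of only the genotypes compared, and leaving out each mouse. The fit was tested on simulated data. Counts carry no molecular identifiers.

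The 9 genes and all lists were chosen with earlier results of these data known. Named genes were the 9 in every mouse, every other B lineage or MHC class II gene called, counts and summed CPM of marker lists, and the 5 genes nearest in pattern. A gene that the rule selects is not reported here, though list counts and sums include it. Genes named outside this rule (Rag1, Igll1, Vpreb1, Il7r, Ikzf1, Tcf3, Slc4a1, Lck, Jchain, the globin and CD3 genes) were chosen after their values were seen.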

Additional observations from a re-analysis of the deposited data

Results flagged for a closer look

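Among the 9 B cell genes, the 39 other B lineage genes and the 10 MHC class II genes (58 in all), 2 had Ddx41 effects in opposite directions with Trp53+/+ and with Trp53+/-, with no overlap between mice in either. Over all 11846 tested genes this was so for 192, and the shares were not compared by a test. For Vpreb3 the difference between the effects was -1.73 on the log2 scale (SE 0.39), and it was not tested, because Vpreb3 was selected on these genotypes. For Siglecg, which encodes an inhibitory lectin of B cells, it was -1.28 (SE 0.366, edgeR adjusted p = 0.557). Siglecg was at 6.91, 3.79 and 7.96 CPM in mice 10, 11 and 12, at 10.6 and 11.6 CPM in mice 32 and 34, at 14.2, 14.1 and 15.3 CPM in mice 22, 23 and 24, and at 13.1 and 8.41 CPM in mice 46 and 47.

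For the Trp53 effects, 1 of the 58 genes, H2-Oa, had opposite directions without overlap with Ddx41+/+ and with Ddx41+/-, against 187 of all 11846. These shares were close, so the count does not set the 58 genes apart. H2-Oa encodes a chain of the MHC class II regulator H2-O, and its difference was -1.26 (SE 0.492, edgeR adjusted p = 0.845). H2-Oa was at 1.85, 1.17 and 1.94 CPM in mice 10, 11 and 12, at 3.50, 2.53 and 3.49 CPM in mice 22, 23 and 24, at 3.28 and 2.92 CPM in mice 32 and 34, and at 2.32 and 2.69 CPM in mice 46 and 47.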

How the results depend on the processing

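The count of other B lineage genes called for Ddx41 with Trp53+/+ was 1, and became 6 with the DESeq2 Wald test, 17 with no filter on low counts and 0 when only the genotypes compared were fitted. Leaving out each mouse in turn gave 0 (without mouse 34) to 4 (without mouse 12). The count of 16 for Trp53 with Ddx41+/+ became 9 when only the genotypes compared were fitted, was 14 to 23 under the other alternatives, and ran from 4 (without mouse 24) to 16 when a mouse was left out. For the difference between the Ddx41 effects, 0 became 9 with no filter. The counts of 0 for Ddx41 with Trp53+/- and for Trp53 with Ddx41+/- were 0 in all 15 alternatives. The cause of these shifts was not tested. The median over the 9 B cell genes, when a mouse was left out, was 0.82 to 1.39 for Ddx41 with Trp53+/+, -0.17 to 0.071 for Ddx41 with Trp53+/-, 1.16 to 1.70 for Trp53 with Ddx41+/+ and -0.13 to 0.43 for Trp53 with Ddx41+/-. The median log2 difference of all genes stayed within 0.0162 of 0 in every fit run. No paired analysis was possible because the genotypes share no mouse numbers. Leaving out a mouse from a genotype of 2 leaves 1 mouse, which is then assumed to vary like the other genotypes. Low counts, such as 31 for Pax5 in mouse 11, limit the lowest genes.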
